A study of Mus musculus with 8 samples.

Results

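The loci described here are 2 stretches of the mouse genome build mm10 that carry satellite repeats. One is a window of 10 kb on chromosome 2 around the annotated gene Gm10800, and the other is a window of 40 kb on chromosome 9 from position 3000000 that holds Gm10722, Gm10718 and Gm26870. Their members are the deposited ChIP-seq regions that overlap these windows. There were 21 in the table of dimethylated histone H3 lysine 9 (H3K9me2), out of 1983 regions, and 21 in the table of the trimethylated form (H3K9me3), out of 14515. Of each 21, the first 3 lay on chromosome 2 and the other 18 on chromosome 9, and each H3K9me2 member overlapped exactly 1 H3K9me3 member. The loci were selected on their read counts, which were known to be high in all libraries, so their levels are given as a description without a test. That chromosome 9 held higher H3K9me2 regions was also known from earlier results of these data.

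The cells were immortalized mouse embryonic fibroblasts of C57bl6 background, made from HAT1+/+ embryos (WT) or HAT1-/- embryos (KO). HAT1 is an acetyltransferase that modifies newly made histones before they are built into chromatin. Chromatin was precipitated with an H3K9me2 or an H3K9me3 antibody from 2 WT and 2 KO lines, 8 libraries in all, and human myoblasts were added to every sample as a spike-in. Whether the WT and KO lines came from littermates is not given in the sources used here, and with 2 libraries a group the p-values measure only the spread between these samples.

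H3K9me3 marks constitutive heterochromatin, the compacted chromatin around mouse centromeres, where the enzymes SUV39H1 and SUV39H2 write it and HP1 proteins bind it. H3K9me2 is written largely by G9a and GLP and also covers wide silent domains at the nuclear edge. The DNA beneath mouse pericentromeric heterochromatin is the major satellite, an AT-rich tandem repeat built from shorter related subrepeats. The centromere itself lies on the minor satellite, a shorter tandem repeat that carries the CENP-B box, the site bound by the centromere protein CENP-B. Long satellite arrays are mostly missing from genome assemblies, and the few copies that are assembled stand in for them when reads are aligned.

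The repeat units that define the loci are shown to make plain what the counted reads came from. The sequences were read from the RefSeq copy of GRCm38.p6, the assembly of mm10. The first unit lies at chr9:3024093-3024326 on the plus strand, in an exon of Gm26870 and an intron of Gm10718, and the unit that follows it at chr9:3024327-3024560 runs into a coding exon of Gm10718. The next lies at chr9:3000327-3000560 on the plus strand, in an exon of Gm26870, inside the region that also covers the start of Gm10722. The fourth lies at chr2:98666738-98666971 on the minus strand, in a coding exon of Gm10800. Capitals mark the bases that differ from the first unit.

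Gm10718 unit: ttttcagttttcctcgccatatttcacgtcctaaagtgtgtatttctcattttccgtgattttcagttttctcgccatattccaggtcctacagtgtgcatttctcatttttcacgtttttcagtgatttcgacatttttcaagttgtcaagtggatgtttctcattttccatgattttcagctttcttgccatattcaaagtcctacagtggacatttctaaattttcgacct
Gm10718 next unit: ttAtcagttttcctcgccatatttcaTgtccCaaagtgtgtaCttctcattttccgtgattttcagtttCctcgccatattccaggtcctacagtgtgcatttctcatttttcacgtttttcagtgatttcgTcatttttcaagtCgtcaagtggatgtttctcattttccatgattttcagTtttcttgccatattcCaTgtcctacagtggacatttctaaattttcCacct
Gm10722 region unit: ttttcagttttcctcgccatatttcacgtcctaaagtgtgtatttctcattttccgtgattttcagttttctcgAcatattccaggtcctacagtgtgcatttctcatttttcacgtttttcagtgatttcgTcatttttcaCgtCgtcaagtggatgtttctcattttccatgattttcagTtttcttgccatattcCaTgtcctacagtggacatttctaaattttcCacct
Gm10800 unit: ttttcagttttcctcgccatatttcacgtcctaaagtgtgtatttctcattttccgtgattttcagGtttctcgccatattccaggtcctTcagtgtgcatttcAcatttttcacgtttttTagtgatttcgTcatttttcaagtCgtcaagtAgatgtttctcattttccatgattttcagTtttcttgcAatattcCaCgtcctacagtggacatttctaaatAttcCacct

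All 4 are 234 bases long. The second was 95.3% identical to the first, with 11 differing bases, the Gm10722 region unit was 96.6% identical with 8, and the Gm10800 unit was 94.4% identical with 13, although it lies on another chromosome. A unit length of 234 bases is that of the major satellite.

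The second kind of unit was found on chromosome 2 only among the 21 members. It is shown from the H3K9me2 region that spans 98664989 to 98665233 between Gm10801 and Gm10800, in no annotated gene, as its copies at chr2:98664994-98665113 and chr2:98665114-98665233 on the plus strand. Capitals mark the match to the 17-base CENP-B box motif, which was searched on both strands.

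First 120-base unit: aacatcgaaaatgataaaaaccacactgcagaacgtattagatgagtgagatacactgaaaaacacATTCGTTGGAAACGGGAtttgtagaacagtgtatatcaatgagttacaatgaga
Second 120-base unit: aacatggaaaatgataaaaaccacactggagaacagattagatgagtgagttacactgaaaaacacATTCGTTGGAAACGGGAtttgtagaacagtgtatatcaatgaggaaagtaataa

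Each copy is 120 bases long and holds 1 CENP-B box match, and the copies were 90.1% identical to each other. A 120-base repeat with a CENP-B box is the hallmark of the minor satellite, so the name major satellite fits the chromosome 9 locus but only a portion of the chromosome 2 locus. The box occurred in 3 of the 21 H3K9me2 members, all on chromosome 2, against 4 of 1933 H3K9me2 regions (0.207%) and 4 of 14398 H3K9me3 regions (0.028%) whose sequence could be read, members included. The fourth lay on chromosome 6.

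The make-up of the members was described by the share of their bases covered by short words of 12 bases from each kind of unit. The 234-base words were taken from members of either mark that matched themselves best at a shift of 234 bases, at 90% of positions or more. Of the H3K9me2 members 5 did so, at 91.3% to 96.3% of positions, so those are covered by construction. In the other 13 chromosome 9 members the coverage was 89.8% to 100%, and that by 120-base words was 4.86% to 10.8% over all 18. The region over Gm10800, 98666231 to 98667396, was mixed, with 68.8% of its bases covered by 234-base words and 25.8% by 120-base words. The region over Gm10801, 98662194 to 98662941, was mixed more evenly, at 50.7% and 43.4%. The 120-base words were taken from the region between them, as called in each mark, so its coverage of 100% by these words is by construction. This region shared 0% of its 24-base words with the chromosome 9 locus. The 12-base word with the most occurrences in the H3K9me2 members was TTTTCAGTTTTC. It was found on either strand in 20 of 21 H3K9me2 members, and the exception was the 120-base region. Members included, it was found in 1.60% of all H3K9me2 regions and 0.222% of all H3K9me3 regions read. The word was chosen by its occurrences in these members, so its excess there is by construction.

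**Figure D1:**
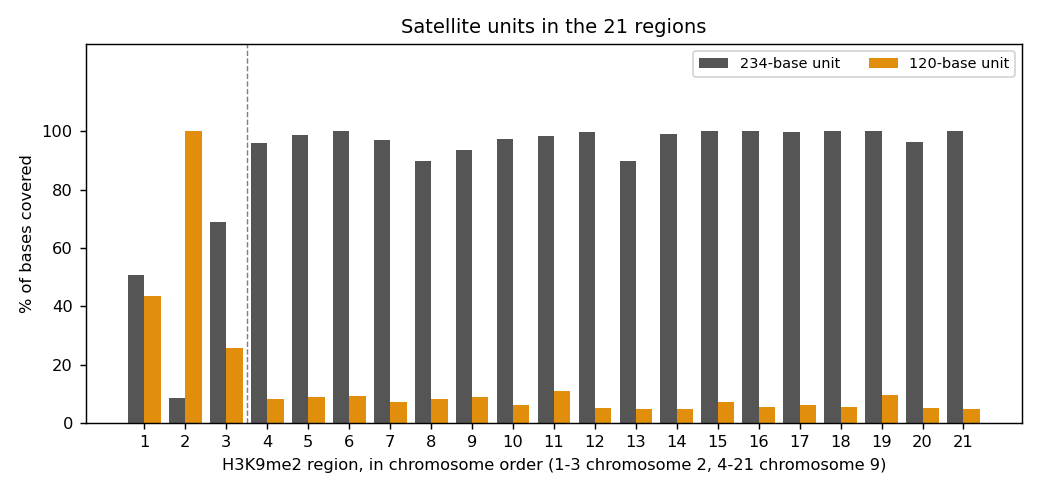
Percent of the bases of each H3K9me2 region covered by 12-base words of the 234-base unit (grey) and of the 120-base unit (orange), with the 21 regions in chromosome order and a dashed line between chromosome 2 and chromosome 9. All 18 regions of chromosome 9 stand at 89.8% or more for the 234-base unit, while region 2 of chromosome 2 stands at 100% for the 120-base unit.

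The members were AT-rich. Their GC content was 34.0% to 37.7%, against a median of 49.0% for all H3K9me2 regions and 49.9% for all H3K9me3 ones. On chromosome 9, 6 of 18 members matched themselves best at a shift of 234 bases and 7 at a shift of 58 bases, the size of a subrepeat, and the remaining 5 at other shifts between 116 and 176 bases. Between 68.5% and 100% of the 24-base words of an H3K9me2 member occurred more than once in the assembly, and on chromosome 9 the median word of a member had between 10 and 109 copies. These words occurred at 31543 positions of the chromosome 9 window, at 2331 of the chromosome 2 window and at 22473 on unplaced scaffolds. A read from such a sequence cannot be assigned to one copy, and how the authors placed reads that align equally well at several sites is not given in the sources used here. The count of a single member is therefore uncertain as a measure of that site. A locus sum is uncertain too, since chromosome 9 members shared some 24-base words with the chromosome 2 locus and copies also lie on unplaced scaffolds.

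By GENCODE release M21, Gm10800 (98666547 to 98667301, minus strand), Gm10722 (3000922 to 3002330, plus strand) and Gm10718 (3023547 to 3025218, plus strand) are labelled protein coding, and Gm26870 (3000282 to 3038313, minus strand) is labelled a long intergenic noncoding RNA that runs across the whole chromosome 9 locus. A region lay over Gm10800 once, over Gm10722 and Gm10718 in 2 places each and over Gm26870 in all 18. Of a chosen list of 8 further genes annotated in the loci (Gm10801, Gm10715, Gm10717, Gm10719, Gm10720, Gm10721, Gm11168 and Gm17535), 7 had a region in both marks and Gm10721 had none. The microRNA gene Mir101c (3038669 to 3038743, minus strand), which was not on that list, also lies in the chromosome 9 window and had none. Of the 18 chromosome 9 members of H3K9me2, 11 touched an exon of some gene and 7 lay in introns only.

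The H3K9me2 libraries held 5422405 to 8421764 reads and the H3K9me3 libraries 4198682 to 5810913, as recovered from the deposited RPM, in which the count plus 1 is divided by 1 total per library. These totals are called all reads here, and whether they had been scaled by the spike-in is not given in the sources used here. RPM below is the count over this total, scaled to 1000000. The share of reads in regions was 9.02% to 9.53% in KO and 4.89% to 6.83% in WT for H3K9me2, and 19.7% to 20.4% in KO and 12.01% to 13.6% in WT for H3K9me3. No region of either mark overlapped Hat1, so these tables hold no check of the knockout itself, and none overlapped the others of a list of 18 heterochromatin genes, which include the writers and readers Suv39h1, Suv39h2, Setdb1, Ehmt1, Ehmt2 and Cbx5. Both marks had 7 members among the 10 regions with the most counts and 13 among the top 25. The region with the most counts, over Gm10800, collected a mean of 135 H3K9me2 counts and 147 H3K9me3 counts per base and library.

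The levels of the 4 genes were read as the summed counts of their regions. For H3K9me2, Gm10800 gave 169354 and 157984 counts in the KO libraries, and the WT libraries gave 145531 and 156470. Scaled to all reads, the KO libraries stood at 30659.8 and 29135 RPM and the WT libraries at 17280.3 and 24084 RPM. Both KO libraries lay above both WT libraries in RPM, as they did in 45.5% of all H3K9me2 regions and 57.6% of all H3K9me3 regions, and WT library 1 was the lowest.

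For H3K9me3, the KO libraries gave 172047 and 185895 counts over Gm10800 and the WT libraries 160475 and 177703. The KO libraries stood at 40976 and 40217 RPM and the WT libraries at 27616 and 31198 RPM. The groups did not overlap in RPM here either, and WT library 1 was the lowest. The marks are not separate observations of the WT libraries: over 775 regions paired between the marks, the log2 difference between WT libraries 1 and 2 in H3K9me2 correlated with that in H3K9me3 at r = 0.71, whereas for the KO libraries r was -0.04.

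Gm10718 reached 8674 and 8073 RPM of H3K9me2 in KO and 4337 and 6377 RPM in WT. Its H3K9me3 was 11413 and 11711 RPM in KO and 7538 and 8878 RPM in WT. In RPM the KO libraries were the higher ones for both marks, whereas with the TMM scaling described below the log2 fold change of its stronger region was -0.07 for H3K9me2 and -0.57 for H3K9me3. Its weaker region had 0.18 for H3K9me2 and -0.39 for H3K9me3 with that scaling.

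Gm10722 had 10180.2 and 9544 RPM of H3K9me2 in KO and 4579.9 and 7217 RPM in WT. Its H3K9me3 was 13837 and 14890.5 RPM in KO and 7839 and 11012 RPM in WT. The order of the libraries was that of Gm10718, with both KO libraries highest and WT library 1 lowest.

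Summed over all 18 regions, Gm26870 had 25661 and 23856 RPM of H3K9me2 in KO and 11469.7 and 17995 RPM in WT. Its H3K9me3 was 34515 and 37666 RPM in KO and 20047 and 27673 RPM in WT. These sums include the regions of Gm10722 and Gm10718 and are the sum of the chromosome 9 locus. They too separated the genotypes in RPM.

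Per kilobase of region the order was Gm10800, Gm10718, Gm10722, Gm26870 in each of the 8 libraries. In H3K9me2 KO library 1 the levels were 26317, 8054, 5438 and 2959 RPM per kb, and in H3K9me2 WT library 1 they were 14833, 4027, 2446.5 and 1323 RPM per kb. Gm10800 did not overlap its neighbour in that order, whereas over all 4 H3K9me2 libraries the values of Gm10718 (4027 to 8054 RPM per kb) and Gm10722 (2446.5 to 5438 RPM per kb) overlapped and differed only within a library.

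**Figure D2:**
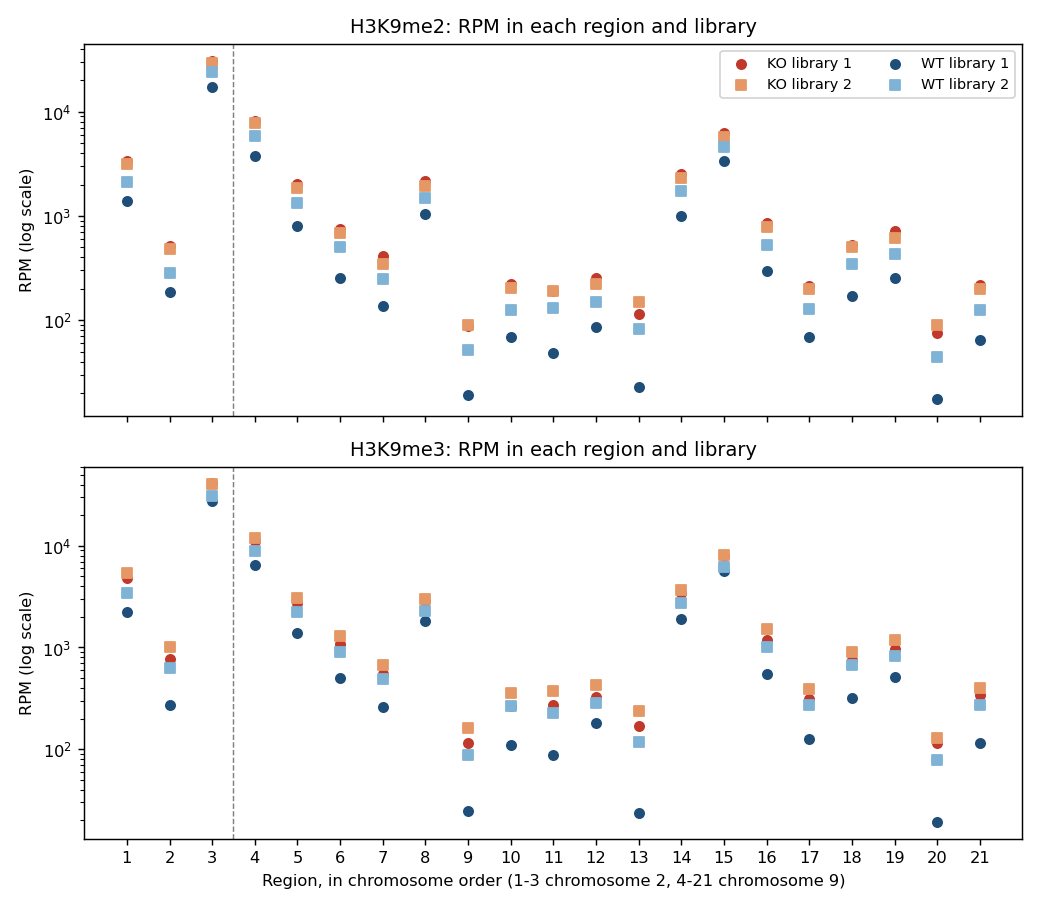
RPM (log scale) in each of the 21 regions for H3K9me2 (top) and H3K9me3 (bottom), with 1 point per library, KO in red and orange and WT in dark and light blue, and a dashed line between the chromosomes. Region 3 is Gm10800, region 4 starts the Gm10722 gene and region 15 is the stronger Gm10718 region, and WT library 1 is lowest in every region of both marks.

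The first comparison asked what share of each library the loci held. Each share of all reads has a 95% Wilson interval narrower than 0.06 percentage points, which covers counting error only. The chromosome 2 locus held 3.46% and 3.27% of the H3K9me2 KO libraries, against 1.89% and 2.65% of the WT libraries. The KO mean was 3.37% ± 0.129 (SD, n = 2), and the WT mean was 2.27% ± 0.539 (SD, n = 2), which is a ratio of 1.48. The KO libraries were higher, and an exact two-sided permutation test gave p = 0.33, the smallest that 2 libraries against 2 allow.

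The chromosome 9 locus held 2.57% and 2.39% of the H3K9me2 KO libraries, against 1.15% and 1.80% of the WT libraries. The KO mean of 2.48% ± 0.128 (SD, n = 2) stood against a WT mean of 1.47% ± 0.461 (SD, n = 2), a ratio of 1.68, with the same exact permutation p of 0.33. For H3K9me3 the chromosome 2 locus held 4.66% and 4.67% of the KO libraries, against 3.01% and 3.52% of the WT libraries. The chromosome 9 locus held 3.45% and 3.77% of the H3K9me3 KO libraries, against 2.00% and 2.77% of the WT libraries. Both H3K9me3 comparisons had KO above WT, with ratios of 1.43 and 1.51 and an exact permutation p of 0.33 each.

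Set against the counts in regions instead of all reads, the direction changed for the chromosome 2 locus in both marks and for the chromosome 9 locus in H3K9me3, but not for the chromosome 9 locus in H3K9me2. The chromosome 2 locus held 36.3% of the H3K9me2 counts in regions in each KO library and 38.5% and 38.8% in the WT libraries. For H3K9me3 it held 23.6% and 22.9% in KO and 25.1% and 25.9% in WT. By this measure the chromosome 2 locus was lower in KO for both marks, without overlap (exact permutation p = 0.33). For H3K9me2 the chromosome 9 locus held 26.9% and 26.4% in KO, against WT shares of 23.4% and 26.4%, so KO stayed higher, by a mean of 1.79 percentage points, with the nearest libraries at 26.44% and 26.36%. For H3K9me3 it held 17.5% and 18.5% in KO, against WT shares of 16.7% and 20.4%, so these groups overlapped. The loci together held 62.0% to 65.2% of all H3K9me2 counts in regions and 41.1% to 46.3% of all H3K9me3 counts. More reads of a KO library thus lay in the loci, and more lay in the other regions as well.

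**Figure D3:**
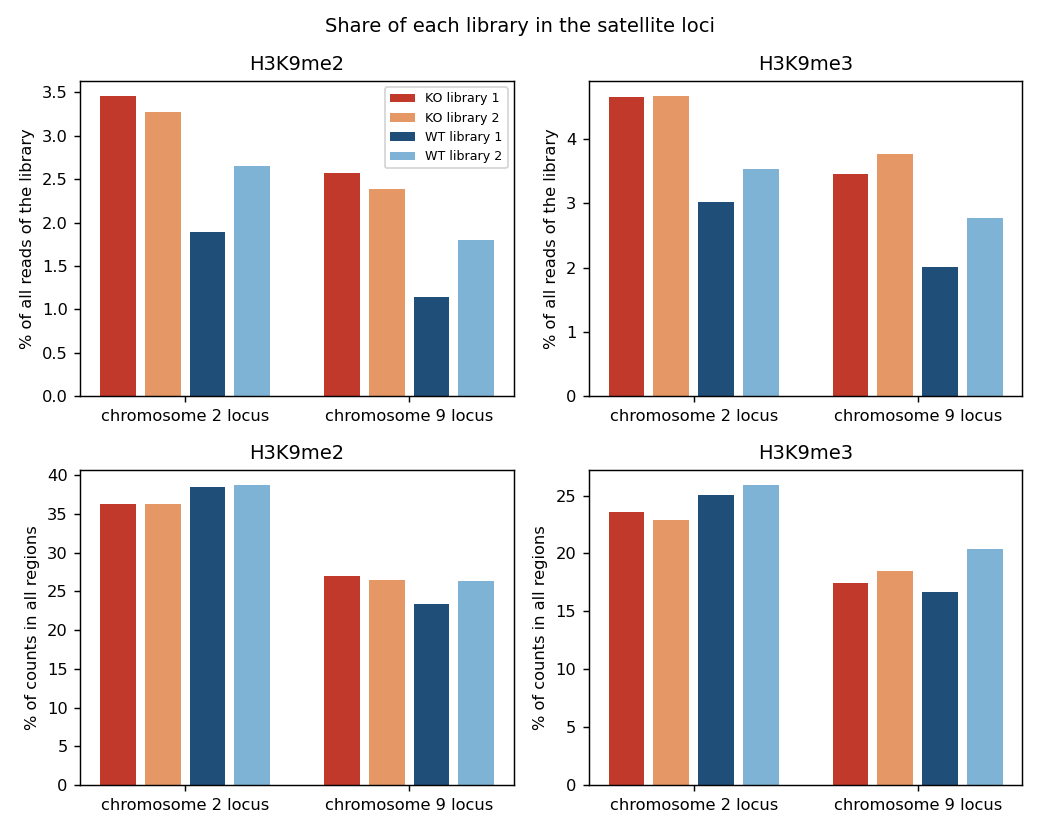
Percent of each library found in the chromosome 2 and chromosome 9 loci, as a share of all reads (top) and of the counts in all regions of the mark (bottom), with 1 bar per library. As a share of all reads both KO bars stand above both WT bars at each locus, and as a share of counts in regions the chromosome 2 bars of KO stand below those of WT.

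Within the chromosome 2 locus the Gm10800 region alone took 88.7% to 91.6% of the H3K9me2 counts and 86.2% to 91.7% of the H3K9me3 counts. The first chromosome 9 region, which covers the start of Gm10722, took 31.8% to 32.9% and 31.4% to 32.2% of its locus. The chromosome 9 sums thus rest on several regions, and the chromosome 2 sums on 1.

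The second comparison tested each region between the genotypes with edgeR's quasi-likelihood test on the counts, with p-values adjusted by the Benjamini-Hochberg method over all regions of a mark (FDR). The library totals were scaled by TMM, which assumes that most regions do not differ between libraries, and the fit was repeated with the totals alone, which keeps a shift that all regions share. Removing TMM moved the median log2 fold change (KO over WT) of all H3K9me2 regions from 0.12 to 0.79 and that of all H3K9me3 regions from 0.05 to 1.06. The fold changes below are on the log2 scale.

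For H3K9me2 with TMM, 1 of the 21 members was called higher in KO and 0 were called lower, while 0.202% of all regions were called higher and 1.71% lower. The members had a median of 0.36, between -0.12 and 0.82, and 19 of 21 were above 0, against 55.4% of all regions. The median was 0.11 without WT library 1, with 15 of 21 above 0, and 0.55 without WT library 2. At an unadjusted edgeR p under 0.05, 8 members were higher and 0 lower, against 2.12% and 7.21% of all regions. The scaled counts of both KO libraries lay above both WT libraries in 7 of 21 members, against 20.0% of all regions. With DESeq2, 0 members were called.

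The member called was the region from 3035849 to 3036090 on chromosome 9, an intron of Gm26870 that holds no other gene. The KO libraries gave 416 and 493 counts and the WT libraries 147 and 286, or 75.3 and 90.9 RPM against 17.5 and 44.0 RPM. It had the fewest counts of the 21, and its WT libraries differed 2.52-fold from each other. Its log2 fold change was 0.82 (SE 0.23) with an edgeR FDR of 0.0340. The call depended on WT library 1: without that library the log2 fold change was 0.40 and the FDR 0.547. Without WT library 2 the log2 fold change was 1.33. Each of these fits holds 1 WT library, so the KO libraries alone supply the spread. Without KO library 1 or KO library 2 the log2 fold change was 0.91 or 0.73 and the FDR 0.799 or 0.914, in fits that called 0 regions of the whole table and where the lone KO library is assumed to vary like the WT libraries. With DESeq2 the value was 0.82 and the adjusted p 0.113.

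The neighbouring values were close to that threshold. The intronic region of Gm10719 and Gm26870 from 3019117 to 3019363 gave 634 and 813 KO counts against WT counts of 195 and 541. Its value was 0.72 (SE 0.22), at an edgeR FDR of 0.0537. The Gm26870 intron region from 3011633 to 3011915 gave 486 and 488 KO counts against WT counts of 161 and 335, and its value was 0.72 (SE 0.23) at an edgeR FDR of 0.0680. Without WT library 1 that region had 0.27 and without WT library 2 it had 1.30. It was called with a replicate block (edgeR FDR 0.0261) and with repeat rows kept (edgeR FDR 0.0442). These are the 3 members with the fewest counts, and in each WT library 1 had less than a 50% share of the RPM of WT library 2.

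The strongest members had values near 0. The Gm10800 region had a log2 fold change of -0.12 (SE 0.39) and the stronger Gm10718 region, from 3024004 to 3024690, had -0.07 (SE 0.29). The first Gm10722 region, from 3000046 to 3001565, had 0.07 (SE 0.30), and the second, from 3001993 to 3002346, had 0.22 (SE 0.24). None of the regions over the 3 protein-coding genes passed the edgeR test, the lowest FDR among these 5 being 0.792. The interval of the Gm10800 change, -0.88 to 0.64, is wide enough to hold a 1.5-fold change either way.

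On chromosome 2 the 120-base region had the fewest counts of the 3. The KO libraries gave 2867 and 2611 counts there and the WT libraries 1575 and 1843, for a value of 0.44 (SE 0.21) at an edgeR FDR of 0.454. Over Gm10801 the KO counts were 18744 and 16973 and the WT counts 11700 and 13762, for a value of 0.25 (SE 0.25) at an FDR of 0.792. The other chromosome 9 regions with many counts, from 3006555 to 3007264 (Gm11168), from 3023384 to 3023775 (Gm10718) and from 3025456 to 3026033 (Gm10717), had 0.04, 0.18 and 0.36. These values moved with WT library 1: without it the second Gm10722 region had 0.02, the Gm10801 region 0.11 and the Gm10717 region 0.11. The remaining members had values between 0.29 and 0.52.

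With the library totals alone, all 21 members were above 0 for H3K9me2, with a median of 0.99 between 0.53 and 1.44. Of these, 14 were called higher and 0 lower, against 5.5% of all regions called higher and 0.252% called lower. Both KO libraries lay above both WT libraries in RPM in 21 of 21 members, against 45.5% of all regions. The 14 called were the 14 members with the fewest counts. The 7 not called included the regions of Gm10800 (0.53, SE 0.68), Gm10722 and Gm10718. The number called was 16 without WT library 1, 21 without WT library 2 and 8 with the replicate number as a block, where 177, 211 and 76 of all regions were called. Without KO library 1 or KO library 2 it was 0, as for the whole table, while the median of the members was 0.92 or 1.07.

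For H3K9me3 with TMM, 0 members were called, while 0.0276% of all regions were called higher and 0.971% lower. At an unadjusted edgeR p under 0.05, 1 member was lower and 0 were higher, against 8.16% and 0.985% of all regions, and DESeq2 called 0. The members had a median of -0.26, between -0.57 and 0.53, and 17 of 21 were below 0, against 47.6% of all regions. The scaled counts of both KO libraries were lower than either WT library in 5 of 21 members, against 19.1% of all regions. Without WT library 1 the median was -0.58, and without WT library 2 it was 0.16, so its direction turned with the WT library used. It also turned with the scaling, to 0.11 with 16 of 21 above 0 when the counts in regions served as library size.

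The lowest H3K9me3 value belonged to the stronger Gm10718 region, from 3023996 to 3024689, where the KO libraries gave 33599 and 37165 counts and the WT libraries 32800 and 35036. Its log2 fold change was -0.57 (SE 0.29) with an edgeR FDR of 0.538. The Gm10800 region had -0.54 (SE 0.29) and an edgeR FDR of 0.588, and the first Gm10722 region had -0.42 (SE 0.29) and 0.750. None of these passed the test. With the library totals alone their values were 0.44, 0.47 and 0.59.

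The highest H3K9me3 value belonged to the region from 3019101 to 3019370 in Gm10719 and Gm26870. The KO libraries gave 711 and 1085 counts and the WT libraries 137 and 676, and the WT libraries differed 5.03-fold in RPM. The log2 fold change was 0.53 (SE 0.34) with an edgeR FDR of 0.714. The other weak regions, from 3011625 to 3011920 and from 3035857 to 3036098, had 0.33 each. Without WT library 1 they had -0.30 and -0.34, and without WT library 2 they had 1.43 and 1.59. Such fits hold 1 WT library, so the KO libraries alone supply the spread. The 3 regions of chromosome 2 had -0.14 over Gm10801, -0.01 over the 120-base unit and -0.54 over Gm10800.

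With the library totals alone, all 21 members were above 0 for H3K9me3, with a median of 0.73 between 0.44 and 1.51. Of these, 3 were called higher and 0 lower, against 0.785% of all regions called higher and 0.103% called lower. Both KO libraries lay above both WT libraries in RPM in 21 of 21 members, against 57.6% of all regions. The 3 called were the 3 with the fewest counts. The number called was 2 without WT library 1, 16 without WT library 2 and 6 with the replicate number as a block, where 304, 173 and 185 of all regions were called. Without KO library 1 or KO library 2 it was 0, where 0 and 11 of all regions were called and the median of the members was 0.90 or 0.61. Without WT library 1 the median of the members was 0.385, and without WT library 2 it was 1.234. With all libraries kept, the members had a higher median than the table for H3K9me2 under both scalings. For H3K9me3 they had a lower one under both. The medians of the members moved with the WT library used, and those of the table are not given here for fits with a library left out.

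In both marks the fold change fell as the signal rose. Across the 21 members Spearman's rho between the total count and the log2 fold change with TMM was -0.96 for H3K9me2 and -0.79 for H3K9me3, given as a description since the members share libraries and sequence. For H3K9me2 the 5 members with the fewest counts had a median of 0.72 and the 5 with the most had 0.07. For H3K9me3 the medians were 0.33 and -0.42. With the library totals alone the 5 weakest and the 5 strongest had 1.32 and 0.72 for H3K9me2 and 1.31 and 0.59 for H3K9me3, so both ends were above 0 and the order was kept.

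**Figure D4:**
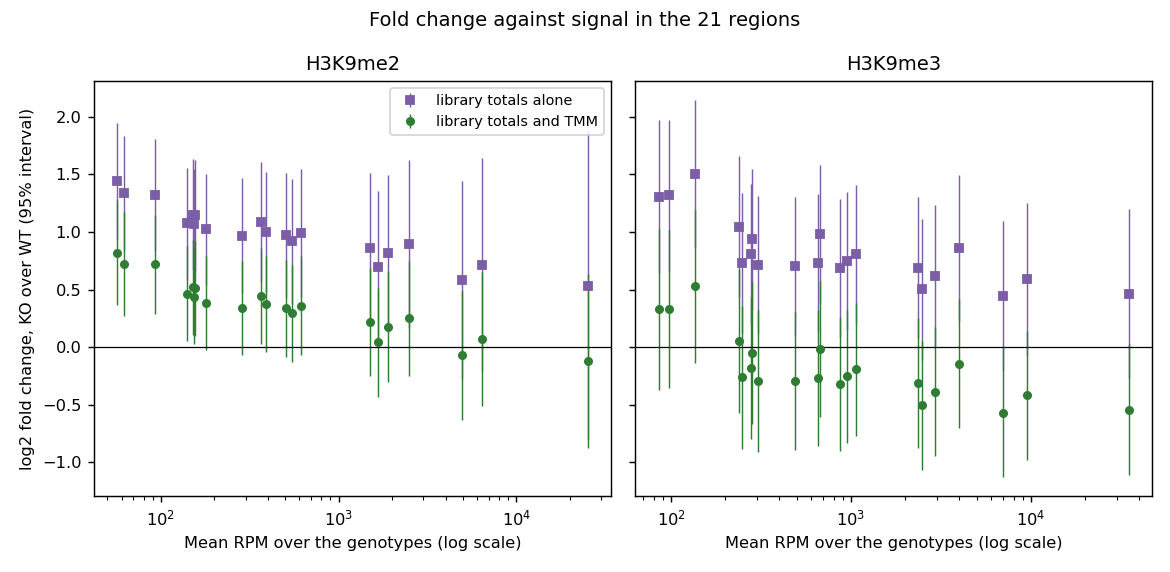
Log2 fold change of KO over WT from edgeR, with its 95% interval, against the mean RPM (log scale) for the 21 regions of each mark, with TMM scaling (green circles) and with library totals alone (purple squares). The values fall from left to right in both marks, from 0.82 to -0.12 with TMM for the weakest and the strongest H3K9me2 regions.

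The difference between the WT libraries followed the same order. WT library 2 was above WT library 1 in RPM in all 21 members of both marks, by 1.39-fold to 3.60-fold for H3K9me2 and by 1.09-fold to 5.03-fold for H3K9me3. Spearman's rho between the total count and this ratio was -0.82 for H3K9me2 and -0.92 for H3K9me3. The KO libraries were closer, with KO library 2 at 0.840 to 1.31 times KO library 1 for H3K9me2 and 0.981 to 1.40 times for H3K9me3. The ratio of the KO mean to the WT mean was 1.45 to 2.70 for H3K9me2 and 1.36 to 2.84 for H3K9me3. The part of the WT library difference in the order of the fold changes was not tested. In each member the lower KO library was still above the higher WT library in RPM, by 1.21-fold to 1.71-fold for H3K9me2 and by 1.01-fold to 1.45-fold for H3K9me3.

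**Figure D5:**
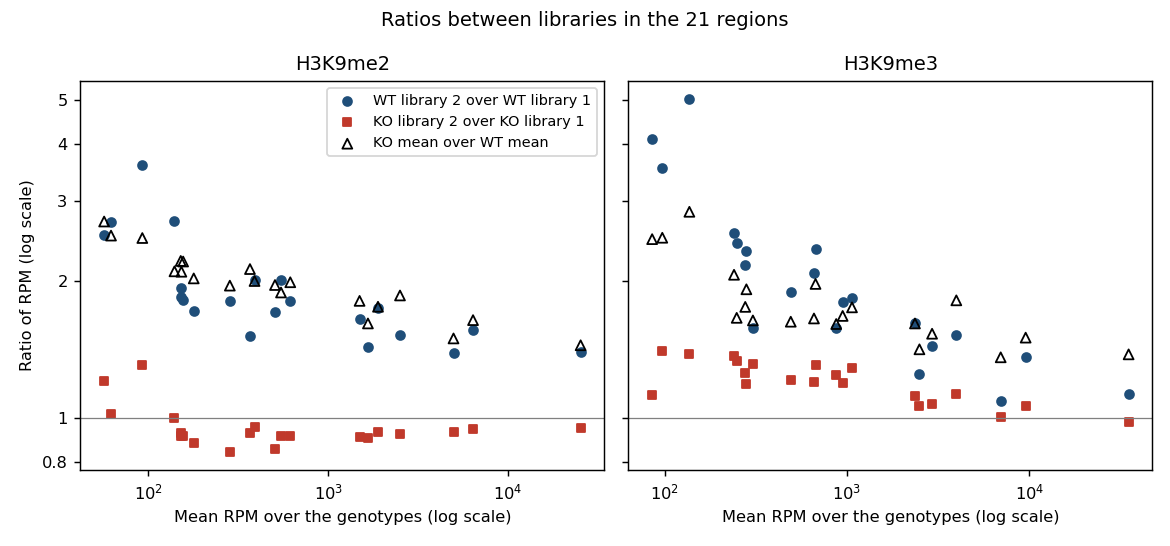
Ratios of RPM (log scale) against mean RPM (log scale) in the 21 regions, for WT library 2 over WT library 1 (blue circles), KO library 2 over KO library 1 (red squares) and the KO mean over the WT mean (open triangles). The ratio between the WT libraries rises to 3.60 for H3K9me2 and 5.03 for H3K9me3 at the weakest regions, where it exceeds or comes near the ratio of the genotypes, while the KO libraries stay between 0.840 and 1.40.

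The third comparison set the marks side by side. Per kilobase of region, H3K9me3 RPM was set against the H3K9me2 RPM of the library with the same genotype and number. Whether a shared number marks the same line is not given in the sources used here. H3K9me3 exceeded H3K9me2 in all 21 members in 3 of these 4 pairs and in 20 of 21 for WT library 1. The median ratio was 1.33 in KO library 1, 1.72 in KO library 2, 1.68 in WT library 1 and 1.71 in WT library 2. Over all 775 regions paired between the marks the medians were 1.39, 1.34, 1.45 and 1.29. The libraries of different antibodies have no common scale, so the ratio is a property of these libraries. For Gm10800 the ratios were 1.32 and 1.36 in KO and 1.58 and 1.28 in WT, and the genotypes overlapped. The exception was the weak region from 3019117 to 3019363, where the ratio in WT library 1 was 0.931.

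Whether the genotype difference itself differed between the marks was tested as an interaction in edgeR over the 775 paired regions, of which 0.0% were called at an FDR of 0.05 and 13 had an unadjusted p under 0.05. Of the 21 members 0 were called and 0 had an unadjusted p under 0.05, with DESeq2 not run on this test. The interaction, H3K9me3 minus H3K9me2, had a median of -0.25 between -0.48 and 0.06, was below 0 in 20 of 21 members and had a median of -0.13 over all pairs. The lowest edgeR p among the members was 0.302. For Gm10800 the value was -0.13, with an interval from -0.48 to 0.22, and for the region from 3019117 it was 0.06, with an interval from -1.65 to 1.77. With the genotype and library number as a block over both marks, 0 members were called and 0 had an unadjusted edgeR p under 0.05. The lowest edgeR p among them was 0.196, and the largest SE fell from 0.79 to 0.34. In that fit 1 of the 775 pairs was called and 52 had an unadjusted edgeR p under 0.05.

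The windows were set by position, and the nearest regions outside them were weak. On chromosome 2 the nearest H3K9me3 regions lay 9168 bp before and 9054 bp after the window, with KO counts of 33 and 34 against WT counts of 20 and 19 before it, and KO counts of 12 and 30 against WT counts of 6 and 3 after it. The nearest H3K9me2 regions lay 445207 bp before and 465540 bp after. On chromosome 9 the next H3K9me3 region lay 128721 bp past the window. The counts thus dropped from 696120 over the Gm10800 region, summed over the 4 H3K9me3 libraries, to 34 or fewer per library in the nearest regions.

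Regions elsewhere that share sequence with the loci were sought on the assembled chromosomes only. The 50 H3K9me2 and 117 H3K9me3 regions on unplaced scaffolds, where the 24-base words of the members occurred at 22473 positions, were not read. In each mark 10 of the regions read outside the windows had at least 10% of their 24-base words in common with the members, and 0 had 50%. They lay on chromosomes 6, 9, 12, 13, 14, 16 and X, at the same places in both marks. The 3 with the highest share of H3K9me2 were on chromosome 14 from 19418563 to 19418987 (47.6%), on chromosome 14 from 19416899 to 19418290 (44.6%) and on chromosome 12 from 3109746 to 3110217 (40.0%). Their H3K9me2 log2 fold changes with TMM were 0.31, 0.29 and 0.01, which lie inside the range of the members. The 3 with the highest share of H3K9me3 were all on chromosome 14, starting at 19418553, 19416889 and 19415696, with -0.23, -0.19 and -0.23. Over the 10 regions the median was 0.30 for H3K9me2 and -0.23 for H3K9me3 with TMM, and 0.94 and 0.77 with the library totals alone, where all 10 were above 0 in both marks and 5 and 2 were called. The medians with TMM rested on single libraries. For H3K9me2 the median was 0.07 without WT library 1 and 0.10 without KO library 1, and for H3K9me3 leaving out WT library 1 gave -0.56 and leaving out WT library 2 gave 0.28.

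The paired regions with the pattern most like the loci were sought by the Euclidean distance of their log2 RPM over the 8 libraries, centred within each mark, among 269 paired regions with a mean of at least 50 counts in both marks. For the chromosome 9 locus the nearest was on chromosome 9 from 35305095 to 35305682, at a distance of 0.06 against a median of 1.01 over the candidates. The next was on chromosome 12 from 3109746 to 3110217 at 0.19, and the third was on an unplaced scaffold at 0.29. For the chromosome 2 locus the nearest were the same chromosome 12 region at 0.14, a region on chromosome 18 at 0.16 and the same chromosome 9 region at 0.27. The chromosome 9 and chromosome 12 regions shared 34.4% and 40.0% of their 24-base words with the loci, and the chromosome 18 region shared 0.0%. Of the 269 candidates, 10 were among the regions that share sequence with the loci. The members themselves lay between 0.05 and 2.22 from the chromosome 9 sum, so some members were farther from it than these regions.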

How the data were processed

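H3K9me2 and H3K9me3 ChIP-seq libraries of 2 WT and 2 KO lines of immortalized fibroblasts were analysed. By their methods, the authors mapped the read pairs with BWA 0.7.12 (build mm10), used MACS2 2.1.0 for peaks and named DiffBind for the differential analysis. Filters on duplicates and mapping quality are not given in the sources used here. The deposited tables hold raw read counts per region and library. The deposited RPM equal the count plus 1 over 1 total per library, to within 0.000504%, and gave the library totals. Whether these totals were scaled by the spike-in is not given in the sources used here. The authors' deposited fold enrichment (a ratio), log2 fold change and p-value columns hold their own normalization and comparison and were not used. Every per-sample count column was used.

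Exact repeat rows were removed (62 of 2045 for H3K9me2, 314 of 14829 for H3K9me3). Coordinates of regions are as deposited, with starts read as counted from 0, and those of printed sequences count from 1. Groups came from the sample titles. Counts were tested with edgeR 4.0.16 (R 4.3.3, glmQLFit and glmQLFTest, library totals with TMM, no filter, no block, two-sided) over all regions of a mark, with a threshold of 0.05 on the Benjamini-Hochberg FDR. The alternatives were library totals alone, counts in regions as library size, TMM without the loci, DESeq2 1.42.0, filterByExpr, a replicate block, each library left out and repeat rows kept. The interaction was fitted to regions that overlap one to one by at least 1 bp. The test was tried on simulated counts. Shares were compared with an exact permutation test (scipy 1.17.1, Python 3.11.15). RPM in the text is the count over the library total, scaled to 1000000. Sequence was not read for 50 H3K9me2 and 117 H3K9me3 regions on unplaced scaffolds.

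The members, gene lists and tests were chosen with earlier results of these data known. The named regions were the 3 of chromosome 2 and, on chromosome 9, the 6 with the most counts, those called at an FDR under 0.05 and the 2 with the fewest counts per mark. The regions starting at 3019101 and 3019117 were named after their values were seen, for their WT spread. Outside the loci, the named regions were the 3 nearest in pattern to each locus and the 3 per mark that share most 24-base words.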

Additional observations from a re-analysis of the deposited data

How the results depend on the processing

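The number of members called depended on the scaling and on single libraries. For H3K9me2 it was 1, and it became 14 with the library totals alone, 0 with counts in regions as library size, 0 with DESeq2, 2 with filterByExpr and 3 with repeat rows kept. Leaving out each library gave 0 (without WT library 1 or either KO library) to 5 (without WT library 2). For H3K9me3 it was 0, and it became 3 with the library totals alone and 0 to 3 with each library left out, the 3 again without WT library 2. The median of the H3K9me2 members moved from 0.36 to 0.992 with the library totals alone, and that of the H3K9me3 members from -0.262 to 0.732. In a check added after seeing the data, each library was left out with the totals alone, which gave 0 to 21 H3K9me2 members called with a median of 0.623 (without WT library 1) to 1.465 (without WT library 2), and 0 to 16 H3K9me3 members called. Over the whole table, 38 H3K9me2 and 145 H3K9me3 regions were called, against 114 and 129 with the totals alone, 24 and 58 with counts in regions as library size, 21 and 70 with DESeq2, 105 and 450 without WT library 1, 58 and 191 without WT library 2, and at most 5 without either KO library. With filterByExpr 36 H3K9me2 and 133 H3K9me3 regions of the whole table were called, and with repeat rows kept 48 and 147. The interaction called 0 members under every alternative run. The cause of these differences was not tested.

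Direction also turned. With the library totals alone, H3K9me2 became 0.532 over Gm10800 and 0.581 over the stronger Gm10718 region. H3K9me3 became 0.86 over Gm10801, 0.979 in the 120-base region, 0.465 over Gm10800, 0.587 and 0.691 in the first and second Gm10722 regions, 0.502 over Gm11168, 0.616 and 0.444 in the weaker and stronger Gm10718 regions and 0.808 over Gm10717. With counts in regions as library size, H3K9me3 became 0.223 over Gm10801, 0.359 in the 120-base region, 0.057 in the second Gm10722 region and 0.178 over Gm10717, and DESeq2 gave 0.032 in the 120-base region. With each library left out, H3K9me2 ranged over both signs at the first Gm10722 region (-0.086 to 0.157), Gm11168 (-0.081 to 0.156) and the weaker (-0.048 to 0.35) and stronger (-0.172 to 0.025) Gm10718 regions. H3K9me3 did so at Gm10801 (-0.379 to 0.127), the 120-base region (-0.48 to 0.65), the second Gm10722 region (-0.58 to 0.01), Gm10717 (-0.535 to 0.238) and the weak regions from 3011625 (-0.297 to 1.426) and 3035857 (-0.344 to 1.587), and in each of these 6 the lowest value was that without WT library 1. As a share of counts in regions, KO minus WT was -2.376 percentage points for H3K9me2 and -2.271 for H3K9me3 on chromosome 2 and -0.548 for H3K9me3 on chromosome 9, but 1.788 for H3K9me2 on chromosome 9, whereas without the region with most counts or any 1 library the shares of all reads stayed higher in KO. The regions elsewhere that share sequence with the loci had medians of 0.937 and 0.766 with the totals alone, added after seeing the data. No region outside the loci whose sequence was read shared 50% of its 24-base words, so that alternative gave no value.

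Whether the replicate numbers pair KO with WT samples is not given in the sources used here. The correlations below cannot settle it, since samples of shared origin need not share such a difference. The difference between KO libraries 1 and 2 correlated with that between WT libraries 1 and 2 at r = 0.03 over 1983 H3K9me2 regions and 0.004 over 14515 H3K9me3 regions. Between the marks the WT difference correlated at r = 0.71 and the KO difference at -0.04 over 775 paired regions. A replicate block left 3 members called for H3K9me2 and 0 for H3K9me3, and the H3K9me3 value of the 120-base region was 0.081. Over the whole table the block gave 37 and 83 calls. With the block and the totals alone, added after seeing the data, 8 and 6 members were called, with medians of 1.052 and 0.816.

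With 2 libraries a group the intervals at the strongest members held a 1.5-fold change either way for Gm10800 in H3K9me2, and reads shared between repeat copies limit what a single region can show.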

Other observations

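Among the 10 regions outside the loci that share sequence with them, 2 held more bases in 120-base words than in 234-base words. They were singled out after their values had been seen. The region on chromosome 6 from 103648965 to 103649407 was covered at 49.5% by 120-base words, at 7.47% by 234-base words and held 1 CENP-B box match. The region on chromosome X from 143482856 to 143483244 was covered at 25% and 0.0%, less than the length of 1 unit, and held 0 box matches, and in the other 8 regions the cover by 120-base words was at most 7.34%.

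Both had higher fold changes than the other 8 regions outside the loci, though the chromosome 6 region was below the highest members on chromosome 9. For H3K9me2 the KO libraries gave 9203 and 8143 counts on chromosome 6 and the WT libraries 5648 and 4659, and the fitted log2 change was 0.52 (SE 0.23, edgeR FDR 0.368). On chromosome X the KO libraries gave 97 and 143 counts and the WT libraries 48 and 51, and the change was 1.03 (SE 0.36, edgeR FDR 0.140). For H3K9me3 they had 0.20 (SE 0.29, edgeR FDR 0.936) and 0.65 (SE 0.42, edgeR FDR 0.719). These were the 2 highest of the 10 values in each mark. None passed the threshold with TMM, and with the library totals alone both passed it in both marks (edgeR FDR 0.00565 and 6.57e-04 for H3K9me2, 0.0248 and 0.0121 for H3K9me3). In the chromosome 2 locus the 120-base region, which had the fewest counts of the 3, had the highest value in both marks, 0.44 and -0.01.

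The chromosome 6 region had WT libraries close to each other in H3K9me2, with 671 and 717 RPM in libraries 1 and 2, and KO libraries at 1666 and 1502 RPM. In H3K9me3 its WT libraries stood further apart, at 856 and 1383 RPM, against 2399 and 2752 RPM in KO. Whether the kinds of satellite differ in their change between the genotypes was not tested.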
